A study of Mus musculus with 46 samples.

Results

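The 8 genes described here, Hmgcs1, Sqle, Insig1, Srebf2, Idi1, Fdps, Lss and Dhcr7, belong to cholesterol synthesis and its control. They were taken by name as target genes of the transcription factor SREBP2 and are 8 of the 48795 genes in the expression table. All 8 had a mean of at least 0.5 FPKM (fragments per kilobase of transcript, scaled to the mapped reads of the library) in every comparison and were tested in each. FPKM is a level per length of transcript, so levels of different genes can be set side by side.

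SREBP2, the protein made from Srebf2, is held in the endoplasmic reticulum with its escort SCAP. When membrane sterol is plentiful, the INSIG proteins, among them the product of Insig1, retain this complex. When sterol is scarce, SREBP2 travels to the Golgi, is cleaved, and its freed part enters the nucleus and raises the genes of cholesterol synthesis and of LDL uptake, including Insig1 and Srebf2 themselves. Loaded sterol sensors of the LXR family act in the other direction, raising genes of cholesterol export such as Abca1, and dividing cells need the pathway for new membrane.

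RNA-seq of whole tissue covered 46 samples in 8 groups. MC-38, a mouse colon carcinoma line, was sampled in culture (n = 3) and as subcutaneous tumors on the flank of female wild-type C57/BL6NTac mice aged 8 to 10 weeks: untreated baseline tumors (n = 3), tumors after 1 dose of the PD-1 antibody muDX400 at 5 mg/kg or of isotype control (n = 5 each, labelled day 4, day 11 after implant by the methods), and tumors after 2 doses of either (n = 5 each, labelled day 8, day 15 after implant). PD-1 is an inhibitory receptor of activated T cells. The other model was the PD-1cKO mouse, in which loxP sites flank exons 2 and 3 of Pdcd1 and creERT2 is made from the ROSA26 locus, so that Cre is not restricted to T cells. PD-1cKO mice and littermate WT controls (n = 10 each), females of the same age, both received tamoxifen at 40 mg/kg on 5 days, and their tumors are labelled day 28, whereas the methods give day 22. No label names the animal or the culture behind a sample, so the p-values measure the spread between these samples.

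Several features of the libraries bear on the values. Isotype control (1 dose) replicate 1 had 54.6% of its summed FPKM in mitochondrial genes against 0.169 to 7.65% in the other 45 samples, and results that rest on it are given with and without it. Short noncoding RNA took 31.3 to 66.9% of summed FPKM in the WT and PD-1cKO tumors and at most 0.292% in all other samples. FPKM is a level per length, so this is not a share of reads, and its effect on other genes was not tested. Levels are therefore mainly compared within each study, and the test of WT tumors against culture is an exception. Pdcd1 itself was 3.30 ± 1.46 FPKM (SD, n = 10) in WT tumors and 9.61 ± 4.51 FPKM in tumors labelled PD-1cKO. Gene-level FPKM also counts exons outside the loxP sites, so this value does not check the deletion. The 3 cultures showed epithelial markers near 0, with 0 of 6 above 0.5 FPKM, for example Epcam at 0.215 FPKM. Sample identifiers formed 8 runs of neighbouring numbers. Culture and each tumor group lay in different runs, so run and growth condition cannot be told apart there, and 7 of the 10 PD-1cKO samples lay in a run without any WT sample. Of the 5 isotype control (1 dose) samples 3, among them replicate 1, lay in a run without any PD-1 Ab sample.

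The genes lie on 6 chromosomes of GRCm38: Hmgcs1 (chr13:119690379-119708260, plus strand), Idi1 (chr13:8885501-8892451, plus), Fdps (chr3:89093588-89101959, minus), Sqle (chr15:59315077-59331192, plus), Srebf2 (chr15:82147181-82205379, plus), Lss (chr10:76531588-76557138, plus), Insig1 (chr5:28071363-28078662, plus) and Dhcr7 (chr7:143823145-143848410, plus), as annotated in GENCODE. The promoters of Hmgcs1, Insig1, Srebf2 and Lss are shown because sterol-responsive promoters typically pair a sterol regulatory element with sites for NF-Y (CCAAT) or Sp1 (GGGCGG), and these genes stand for an early enzyme of the pathway, its brake, its regulator and the enzyme that closes the sterol rings. The stretches come from RefSeq promoters of GRCm38.p6, end before the first annotated exon, and lie at chr13:119690101-119690350 (Hmgcs1), chr5:28071162-28071362 (Insig1), chr15:82147019-82147180 (Srebf2) and chr10:76531355-76531587 (Lss), all on the plus strand. Capitals mark ATTGG, which is CCAAT read from the opposite strand, and TCACNCCAC, the sterol regulatory element.
Hmgcs1: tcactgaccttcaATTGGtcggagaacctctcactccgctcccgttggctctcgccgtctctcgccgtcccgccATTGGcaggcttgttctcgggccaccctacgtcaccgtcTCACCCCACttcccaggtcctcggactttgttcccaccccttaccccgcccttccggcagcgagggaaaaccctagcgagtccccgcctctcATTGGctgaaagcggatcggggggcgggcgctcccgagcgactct
Insig1: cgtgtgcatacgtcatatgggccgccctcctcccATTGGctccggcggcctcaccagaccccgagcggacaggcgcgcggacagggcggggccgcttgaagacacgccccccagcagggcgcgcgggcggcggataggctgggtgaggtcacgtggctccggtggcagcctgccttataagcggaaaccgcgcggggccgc
Srebf2: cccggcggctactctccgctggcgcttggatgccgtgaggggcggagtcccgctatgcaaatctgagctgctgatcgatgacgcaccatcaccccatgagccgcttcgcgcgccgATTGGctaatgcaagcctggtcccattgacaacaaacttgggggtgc
Lss: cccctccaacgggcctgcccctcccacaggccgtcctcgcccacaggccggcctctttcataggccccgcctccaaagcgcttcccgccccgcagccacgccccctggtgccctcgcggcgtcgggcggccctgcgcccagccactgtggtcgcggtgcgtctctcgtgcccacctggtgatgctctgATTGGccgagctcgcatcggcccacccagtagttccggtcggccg
Of the 8 genes, 6 matched the RefSeq promoter table, all but Sqle and Fdps. CCAAT and GGGCGG stood together in the 250 bases before a start in all 6 matched genes, against 11.0% of the 32851 promoters in the table. In Idi1 both lay past the start of the first annotated exon, and the 145 bases ahead of that exon held neither. The share counts promoters rather than genes. The 6 genes had 8 starts, and of the 3 starts of Dhcr7 only start 3 held both motifs. TCACNCCAC was found in 1 of the 6, Hmgcs1, 137 bases before the start, and in 1.05% of all promoters. The same letters with an A before them were found in 0 of the 6 and in 0.192% of all promoters. CCAAT alone was in 33.8% and GGGCGG alone in 32.7% of all promoters, both strands being read, and a match of these letters is not a measured site.

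Among the 6 groups outside the tamoxifen study, the cultured cells had the highest mean level of every one of the 8 genes and the PD-1 Ab (2 doses) tumors the lowest. In the tamoxifen study the mean of each gene was lower in PD-1cKO than in WT tumors. In this paragraph FPKM as deposited is given side by side only across the studies, since the library makeup differs. In the plot of levels by sample, the 3 cultures lie above every tumor in FPKM as deposited for 6 genes. For Srebf2 the tumor with isotype control (1 dose) replicate 2, at 62.5 FPKM, and for Fdps WT replicate 6, at 395 FPKM, reached the culture range. Most tumor groups next to each other in the order of means overlapped. Fdps, which makes farnesyl diphosphate, had the highest level per length in each group, from 395 ± 17.9 FPKM in culture to 78.5 ± 58.1 FPKM in PD-1cKO tumors. Lss was the lowest of the 8 in culture, at 46.2 ± 0.706 FPKM. Of the 50-base stretches in the exons, 25.3% of those of Idi1, 26.2% of those of Fdps and 11.6% of those of Hmgcs1 also occur in other annotated genes, so reads of these genes could have been split between copies.

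**Figure D1:**
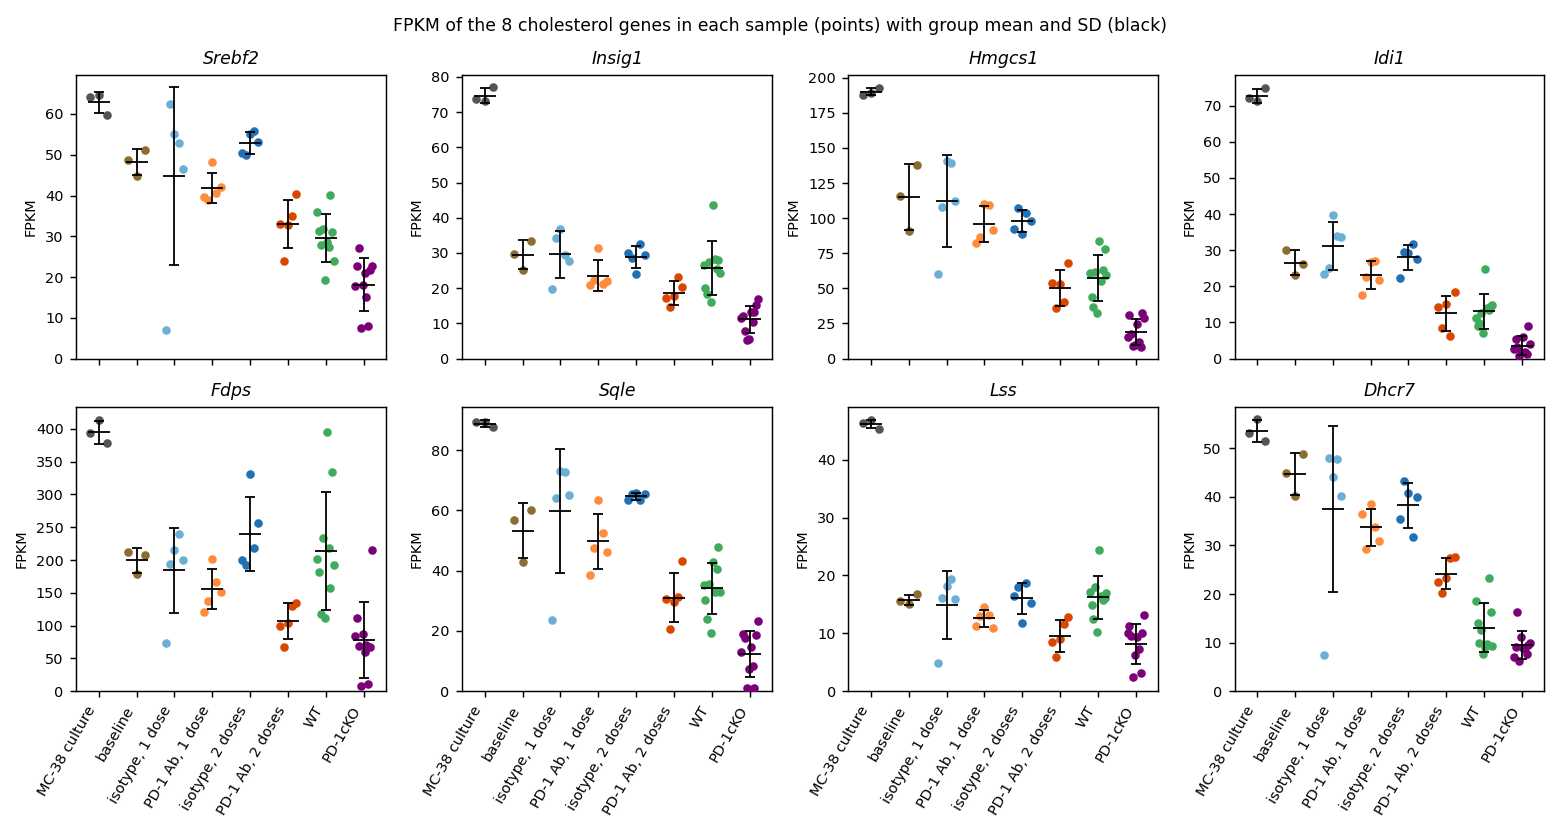
FPKM of the 8 genes (y axis, from 0) in each of the 46 samples (points) by group, with the group mean and SD in black. Outside the tamoxifen study culture has the highest mean of every gene, for example 188 to 193 FPKM of Hmgcs1, and within that study tumors labelled PD-1cKO have a lower mean than WT tumors, with 8.30 to 32.3 FPKM of Hmgcs1 against 32.3 to 83.7 FPKM.

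The comparison of culture with tumors asks how the pathway differs between the line grown alone and the tissue it forms. Against the isotype control (2 doses) tumors, 7 of the 8 genes were lower in the tumors and none was higher at an adjusted p under 0.01, the threshold used throughout (limma on log2(FPKM + 0.1), Benjamini-Hochberg over all tested genes). Of all 15199 genes tested, 37.0% passed and 16.8% were lower in the tumors. With a 2-fold limit 3 of the 8 were lower, Insig1, Idi1 and Lss, against 7.09% of all genes. The median difference was -0.85 (log2) over the 8 genes and -0.11 over all genes. Tumors hold host cells that the culture lacks, and in whole tissue a smaller share of cells with a transcript cannot be told apart from less transcript per cell.

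Srebf2, the regulator itself, measured 64.1, 64.6 and 59.8 FPKM in the 3 cultures and 50.5, 50.0, 55.1, 55.8 and 53.1 FPKM in the 5 isotype control (2 doses) tumors. The groups did not overlap, but the difference of -0.25 (log2, SE 0.07, adjusted p = 0.0161) did not pass. Insig1, the brake on SREBP2 transport, measured 73.6, 73.2 and 77.1 FPKM in culture and 29.9, 28.7, 23.9, 32.5 and 29.4 FPKM in these tumors. Every tumor was far below every culture, the tumor mean being 38.7% of the culture mean, and Insig1 fell by 1.37 on the log2 scale (SE 0.10, adjusted p = 3.67e-06).

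Lss, which cyclizes squalene epoxide to lanosterol, showed the largest difference of the 8. It measured 46.3, 46.8 and 45.4 FPKM in culture and 16.5, 18, 11.8, 18.7 and 15.2 FPKM in the tumors, with no overlap, and fell by 1.54 (log2, SE 0.14, adjusted p = 1.98e-05). Idi1, the isomerase that makes dimethylallyl diphosphate, measured 72.0, 71.2 and 74.9 FPKM in culture and 22.4 to 31.7 FPKM in the tumors and fell by 1.38 (log2, SE 0.11, adjusted p = 7.46e-06). Hmgcs1, the synthase that makes HMG-CoA, was 190 ± 2.86 FPKM in culture and 98.0 ± 7.64 FPKM in the tumors, a fall of 0.96 (log2, SE 0.08, adjusted p = 1.16e-05). The tumor means of Lss, Idi1 and Hmgcs1 were 34.8, 38.6 and 51.6% of the culture means.

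The remaining 3 enzymes fell by less. Fdps was 395 ± 17.9 FPKM in culture and 240 ± 56.9 FPKM in the tumors (-0.75, SE 0.17, adjusted p = 0.00524). Dhcr7, which carries out the last step to cholesterol in the Kandutsch-Russell branch, measured 53.2, 56.0 and 51.6 FPKM in culture and 31.8 to 43.2 FPKM in the tumors (-0.49, SE 0.11, adjusted p = 0.00407). Sqle, squalene epoxidase, measured 89.3, 89.4 and 87.5 FPKM in culture and 63.4 to 65.6 FPKM in the tumors (-0.46, SE 0.06, adjusted p = 0.000223). No tumor value of these 3 genes reached a culture value.

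The other tumor groups share the same 3 cultures, so their values stand beside these and are not independent of them. In baseline tumors 7 of the 8 genes were lower, where 39.1% of 15217 genes passed and 18.3% were lower (3 of the 8 and 3.75% of all genes with a 2-fold limit), with differences from -1.54 to -0.27 (log2) and Dhcr7 not passing (adjusted p = 0.021). In isotype control (1 dose) tumors 2 were lower, Insig1 (-1.36, adjusted p = 0.00421) and Idi1 (-1.25, adjusted p = 0.00574), where 10.7% of 15106 genes passed and 3.32% were lower. Without the mitochondria-rich replicate 1, 6 of the 8 were lower, where 48.5% of all genes passed. Without any 1 of the 3 cultures, or without isotype control replicate 4 or 5, 0 were, and without replicate 2 it was 1, where 6.39 to 8.72% of all genes passed. WT tumors came from mice given tamoxifen and had a different library makeup, so their comparison with culture crosses the studies. In WT tumors all 8 were lower by this test, from -2.54 for Idi1 to -0.99 for Fdps (adjusted p = 0.00901). Of 16001 genes, 69.4% passed and 46.8% were lower. WT replicate 6 had 395 FPKM of Fdps, within the culture range, and median-of-ratios scaling left 7 of the 8 lower, without Fdps. That count stands without the share of all genes under this scaling. That scaling also moved the median of all genes from -0.40 to -0.02 (log2), that of the 8 genes from -1.56 to -1.16, and the share of passing genes that were higher from 32.5 to 52.5%.

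The PD-1 Ab comparison asks whether the pathway changed when the receptor was blocked. After 2 doses, 7 of the 8 genes were lower in PD-1 Ab tumors than in isotype control tumors and none was higher, while 8.25% of 15062 genes passed and 1.56% were lower. With a 2-fold limit 3 of the 8, Idi1, Fdps and Sqle, were lower, against 0.272% of all genes. The median difference was -0.89 (log2) over the 8 genes and -0.04 over all genes. The groups did not overlap for 7 of the 8, Lss being the exception.

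Srebf2 measured 50.5, 50.0, 55.1, 55.8 and 53.1 FPKM with isotype control and 33.1, 24.0, 32.7, 34.9 and 40.4 FPKM with PD-1 Ab. Every PD-1 Ab tumor was below every control, and Srebf2 fell by 0.70 (log2, SE 0.12, adjusted p = 0.00317). Insig1 measured 29.9, 28.7, 23.9, 32.5 and 29.4 FPKM with isotype control and 17.1, 14.7, 17.8, 23.3 and 20.3 FPKM with PD-1 Ab, a fall of 0.64 (log2, SE 0.13, adjusted p = 0.00633). The highest PD-1 Ab value lay just under the lowest control value.

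Hmgcs1 measured 92.0, 107, 89.0, 104 and 98.0 FPKM with isotype control and 53.5, 36.1, 52.8, 40.4 and 68.1 FPKM with PD-1 Ab. The PD-1 Ab mean of 50.2 ± 12.6 FPKM was 51.2% of the control mean of 98.0 ± 7.64 FPKM (-1.0, SE 0.15, adjusted p = 0.00171). Idi1 measured 22.4, 29.6, 29.1, 31.7 and 27.5 FPKM with isotype control and 14.4, 8.50, 15.0, 6.31 and 18.3 FPKM with PD-1 Ab (-1.25, SE 0.25, adjusted p = 0.00625). For both enzymes the PD-1 Ab tumors spread more widely than the controls and replicates 2 and 4 were the lowest.

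Fdps measured 200, 192, 331, 218 and 257 FPKM with isotype control and 99.9, 67.4, 104, 130 and 134 FPKM with PD-1 Ab (-1.17, SE 0.20, adjusted p = 0.00268). Sqle measured 63.5, 65.4, 65.6, 63.4 and 65.5 FPKM with isotype control and 30.6, 20.5, 29.5, 31.3 and 43.3 FPKM with PD-1 Ab. Sqle had the tightest controls of the 8, at 64.7 ± 1.09 FPKM, and the smallest adjusted p (-1.10, SE 0.15, adjusted p = 0.00122).

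Lss measured 16.5, 18, 11.8, 18.7 and 15.2 FPKM with isotype control and 8.45, 5.88, 8.95, 11.6 and 12.9 FPKM with PD-1 Ab. PD-1 Ab replicate 5 exceeded control replicate 3, and the difference of -0.77 (log2, SE 0.20, adjusted p = 0.0196) did not pass. Dhcr7 measured 35.4, 43.2, 40.9, 31.8 and 39.9 FPKM with isotype control and 22.4, 20.2, 23.3, 27.5 and 27.7 FPKM with PD-1 Ab, with no overlap (-0.66, SE 0.12, adjusted p = 0.0036). PD-1 Ab replicate 2 was the lowest of its group for 7 of the 8 genes, all but Idi1, yet each of these genes was also below the control mean in the other 4 tumors.

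The number of genes of the 8 that passed depended on single tumors. It was 3 without isotype control replicate 5, PD-1 Ab replicate 1 or PD-1 Ab replicate 3, 4 without PD-1 Ab replicate 2, and 5 to 8 when any other tumor was left out, while the share of all genes that passed ran from 2.80 to 17.0%. When all 8 groups shared 1 estimate of the spread, 0 of the 8 genes passed, a count given without the share of all genes. All 8 differences were negative in each of these fits.

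**Figure D2:**
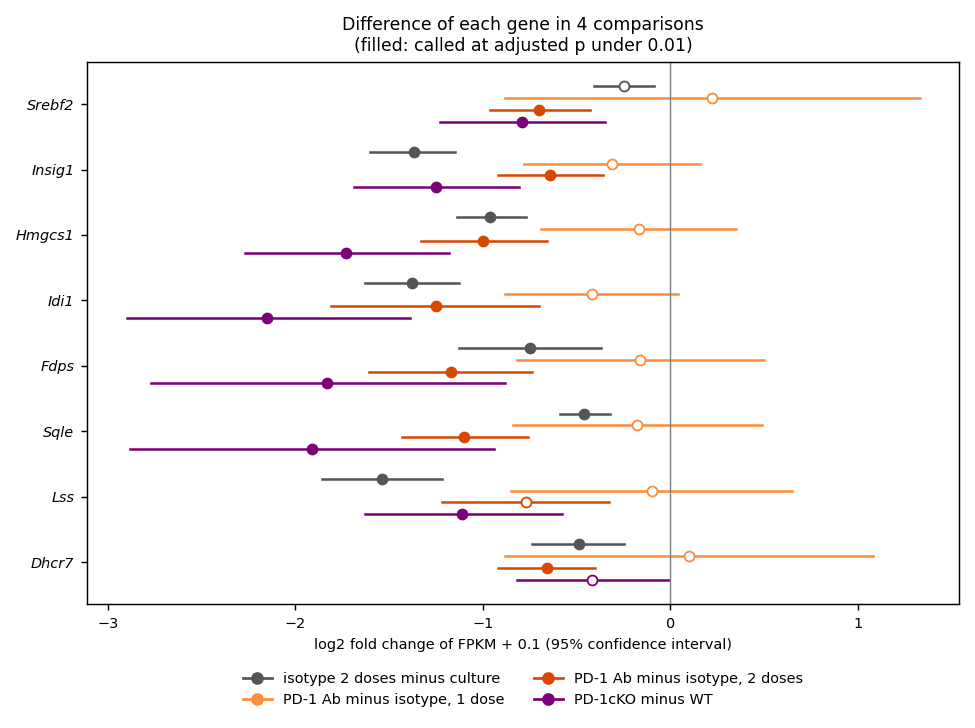
Difference in log2(FPKM + 0.1) of the 8 genes (points, with 95% confidence intervals of limma) in 4 comparisons, filled where the adjusted p is under 0.01. The points after 2 doses of PD-1 Ab lie from -1.25 to -0.64 and those of PD-1cKO against WT from -2.15 to -0.42.

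After 1 dose of PD-1 Ab, 0 of the 8 genes and 0 of the 14556 genes tested passed in limma, 0% of the background in either direction, with 895 genes at an unadjusted p under 0.05. Differences ran from -0.42 to 0.22 (log2) against a median of 0.26 over all genes, and the groups overlapped for each gene. Hmgcs1, for example, measured 60, 108, 141, 139 and 112 FPKM with isotype control and 82.6, 86.5, 110, 109 and 91.7 FPKM with PD-1 Ab. Replicate 1, the mitochondria-rich library, was the lowest control for each of the 8 genes. Without it all 8 differences were negative, from -0.51 to -0.37 (log2), with adjusted p from 0.0632 to 0.135. Whether the change after 2 doses differed from that after 1 dose was tested by the difference of the 2 changes, a comparison added after seeing the data. It ran from -1.01 to -0.33 (log2) over the 8 genes, and 0 of the 8 and 0 of 15289 genes passed, with 1182 genes at an unadjusted p under 0.05. Hmgcs1 differed by -0.83 (unadjusted p = 0.00987, adjusted p = 0.623).

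In the tamoxifen study, 7 of the 8 genes were lower in tumors labelled PD-1cKO than in WT tumors and none was higher, while 21.3% of 15075 genes passed and 12.6% were lower. With a 2-fold limit 6 of the 8 were lower, all but Srebf2 and Dhcr7, against 3.87% of all genes. The median difference was -1.49 (log2) over the 8 genes and -0.20 over all genes. With median-of-ratios scaling these medians were -1.31 and -0.04, and the share of passing genes that were higher went from 41.1 to 54.6%. Then 6 of the 8 genes passed. The share of all genes that passed is not given for this setting, so the count describes the setting only. The groups overlapped for each gene, mostly through single tumors.

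Srebf2 ran from 19.2 over a median of 29.7 to 40.1 FPKM in the 10 WT tumors and from 7.40 over 19.4 to 27.2 FPKM in the 10 PD-1cKO tumors, 5 of which lay below every WT tumor. It fell by 0.79 (log2, SE 0.21, adjusted p = 0.00674), but by 0.62 with adjusted p = 0.0133 after median-of-ratios scaling. Insig1 ran from 16.0 over 25.9 to 43.7 FPKM in WT and from 5.37 over 11.7 to 17.0 FPKM in PD-1cKO tumors (-1.25, SE 0.21, adjusted p = 0.000726). For Insig1 9 of the 10 PD-1cKO tumors were below every WT tumor.

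Hmgcs1 ran from 32.3 over 60.2 to 83.7 FPKM in WT and from 8.30 over 16.7 to 32.3 FPKM in PD-1cKO tumors (-1.73, SE 0.26, adjusted p = 0.00053). Idi1 ran from 7.03 over 13.1 to 24.9 FPKM in WT and from 0.591 over 2.89 to 9.15 FPKM in PD-1cKO tumors, the largest difference of the 8 (-2.15, SE 0.36, adjusted p = 0.000726). For both, 9 of the 10 PD-1cKO tumors lay below every WT tumor. Fdps ran from 112 over 197 to 395 FPKM in WT and from 8.04 over 69.8 to 216 FPKM in PD-1cKO tumors (-1.83, SE 0.45, adjusted p = 0.00468). PD-1cKO replicate 10, at 216 FPKM, was the single PD-1cKO tumor within the WT range of Fdps.

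Sqle ran from 19.2 over 34.0 to 47.8 FPKM in WT and from 1.12 over 13.8 to 23.3 FPKM in PD-1cKO tumors (-1.91, SE 0.47, adjusted p = 0.00429). Replicates 4 and 8 stood apart, at 1.17 and 1.12 FPKM of Sqle and 8.04 and 10.8 FPKM of Fdps, where the other PD-1cKO tumors had at least 7.23 FPKM of Sqle and 59.4 FPKM of Fdps. Lss ran from 10.3 over 16.3 to 24.4 FPKM in WT and from 2.37 over 9.47 to 13.1 FPKM in PD-1cKO tumors (-1.11, SE 0.26, adjusted p = 0.00315). Dhcr7 ran from 7.74 over 11.2 to 23.4 FPKM in WT and from 6.30 over 9.02 to 16.4 FPKM in PD-1cKO tumors, a difference of -0.42 (log2, SE 0.19, adjusted p = 0.0842) that did not pass. Without replicates 4 and 8, an alternative added after seeing the data, 7 of the 8 genes passed, where 11.1% of all genes did, and differences ran from -1.76 to -0.32.

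The runs of sample identifiers nearly separated the genotypes. With the run as a term in the fit, 0 of the 8 genes and 0 of all genes passed, with 6533 genes at an unadjusted p under 0.05, and the differences of the 8 ran from -3.01 to -0.39 (log2, adjusted p 0.0257 to 0.418). In the run holding 1 PD-1cKO and 9 WT tumors, the PD-1cKO tumor was below every WT tumor for all 8 genes, but it was replicate 8, which stood apart from most PD-1cKO tumors and had the highest share of short noncoding RNA, 66.9%. In the run holding 2 PD-1cKO tumors and 1 WT tumor, both were below it for 6 of the 8.

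The 2 models were compared by the difference of their changes, PD-1 Ab (2 doses) against isotype control minus PD-1cKO against WT. It ran from -0.24 to 0.89 (log2) over the 8 genes with adjusted p from 0.343 to 0.902, and 0 of the 8 passed, where 0.0975% of 16404 genes (16) passed and 2585 had an unadjusted p under 0.05. The smallest unadjusted p was that of Insig1, 0.0674. The models differ in day, tamoxifen and library makeup, which cannot be told apart from the way PD-1 was removed.

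Most of the other 16 enzymes of the mevalonate and sterol pathway fell as well. After 2 doses of PD-1 Ab 11 of 16 fell and 0 rose, with a median of -0.67 (log2), for example Msmo1 and Cyp51, which act on the methyl groups of lanosterol and its products, and Mvd, the decarboxylase that makes isopentenyl diphosphate. Msmo1 measured 79.7, 80.7, 137, 88.1 and 97.9 FPKM with isotype control and 38.8, 25.4, 39.7, 37.7 and 55.5 FPKM with PD-1 Ab (-1.30, SE 0.20, adjusted p = 0.00167). Cyp51 differed by -1.06 (adjusted p = 0.00183) and Mvd by -0.97 (adjusted p = 0.00407), and the groups did not overlap for any of these 3 enzymes. In PD-1cKO against WT tumors 11 of 16 fell and 0 rose, with a median of -1.22, led by Cyp51 (-2.07, adjusted p = 0.00203) and Msmo1 (-1.80, adjusted p = 0.000834). Against culture, isotype control (2 doses) tumors were lower in 12 of 16 and higher in 0, with a median of -0.75, led by Sc5d (-1.41), Acat2 (-1.35) and Nsdhl (-1.24). Of all genes tested, 1.56% were lower after 2 doses of PD-1 Ab, 12.6% in PD-1cKO tumors and 16.8% against culture.

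Genes of uptake and intracellular handling of cholesterol were mixed, with a median over 11 genes of 0.16 (log2) against culture, 0.36 after 2 doses of PD-1 Ab and 0.51 in PD-1cKO tumors. Stard4, a cytosolic sterol carrier, measured 15.3, 20.3, 14, 18 and 16 FPKM with isotype control and 9.23, 7.11, 9.39, 8.94 and 10.8 FPKM after 2 doses of PD-1 Ab. The groups did not overlap, and Stard4 fell by 0.87 (log2, adjusted p = 0.00172). It also fell by 1.16 against culture and by 1.44 in PD-1cKO tumors (adjusted p = 0.00182). Of the 11 genes, 3 were higher and 2 lower against culture, 1 rose and 2 fell after 2 doses of PD-1 Ab, and 5 rose and 2 fell in PD-1cKO tumors. The shares of all genes that were lower were 16.8% against culture, 1.56% after 2 doses of PD-1 Ab and 12.6% in PD-1cKO tumors. Of all genes, 3068 of 15199 were higher against culture. After 2 doses of PD-1 Ab 1008 of 15062 rose, and 1323 of 15075 rose in PD-1cKO tumors. Lrp1, a large endocytic receptor, was higher by 1.18 in isotype control (2 doses) tumors than in culture (adjusted p = 0.00249) and rose by 1.04 in PD-1cKO tumors (adjusted p = 0.00195). Npc2, a carrier of cholesterol in the lysosome (0.66, adjusted p = 0.00219), its membrane partner Npc1 (0.51, adjusted p = 0.00524) and Mylip, a ubiquitin ligase and LXR target (0.79, adjusted p = 0.00411), also rose in PD-1cKO tumors.

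Of 7 genes for the proteins that hold, carry or cleave SREBP, among them Scap, Insig2 and the proteases Mbtps1 and Mbtps2, 0 passed after 2 doses of PD-1 Ab and 0 in PD-1cKO against WT tumors, with differences from -0.25 to 0.11 and from -0.63 to 0.16 (log2). Srebf1, which encodes the related factor of fatty acid synthesis, was 33.8 ± 1.79 FPKM with isotype control and 30.5 ± 1.6 FPKM with PD-1 Ab after 2 doses (-0.14, adjusted p = 0.183). Against culture 1 of the 7 was lower, Srebf1 itself (-0.35, adjusted p = 0.007), where 16.8% of all genes were lower.

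Genes of sterol export and storage, which are LXR receptors and targets or handle oxysterols, went the other way. After 2 doses of PD-1 Ab 6 of 11 rose and 0 fell, with a median of 1.80 and a range from -0.12 to 2.88 (log2). Of all 15062 genes tested there, 1008 rose. Abca1, which exports cholesterol to apolipoprotein A-I, measured 4.13, 7.37, 1.61, 5.70 and 2.60 FPKM with isotype control and 24.0, 30.4, 26.5, 15.9 and 11.0 FPKM with PD-1 Ab. The groups did not overlap, and Abca1 rose by 2.40 (log2, SE 0.39, adjusted p = 0.00229). Abcg1 (2.46, adjusted p = 0.000837), Apoe (2.40, adjusted p = 0.00136) and Nr1h3, which encodes LXR alpha (2.08, adjusted p = 0.000967), rose as well. In PD-1cKO against WT tumors 5 of 11 rose and 0 fell, with a median of 1.10, Apoe by 2.02 (adjusted p = 0.000726), Abca1 by 1.92 (adjusted p = 0.000775) and Abcg1 by 1.91 (adjusted p = 0.000611). Differences in PD-1cKO tumors ran from -0.58 to 2.50, and 1323 of all 15075 genes rose. Against culture 10 of 11 were higher and 1 was lower in isotype control (2 doses) tumors, with a median of 2.97, Apoe going from 2.83 to 602 FPKM. There 3068 of all 15199 genes were higher.

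Fatty acid synthesis genes, most of them targets of SREBP1, were mostly lower in 2 of the 3 comparisons. Against culture 10 of 12 were lower and 0 higher, with a median of -0.99 (log2), led by Elovl6 (-2.29) and Acsl3 (-1.45). In PD-1cKO against WT tumors 7 of 12 fell and 0 rose, with a median of -0.69, led by Elovl6 (-1.66, adjusted p = 0.00197), Acsl3 (-1.65, adjusted p = 0.00079) and Fads2 (-1.65, adjusted p = 0.00298). After 2 doses of PD-1 Ab 2 fell and 1 rose, with a median of 0.11. Those that fell were Fads1 (-0.73, adjusted p = 0.00482) and Acsl3 (-0.71, adjusted p = 0.00487), and the one that rose was Thrsp, a lipogenic gene abundant in fat (4.57, adjusted p = 0.00801). Scd1, stearoyl-CoA desaturase, was 60.5 ± 5.00 FPKM with isotype control and 200 ± 96.4 FPKM with PD-1 Ab (1.49, adjusted p = 0.0212). Of all genes tested, 16.8% were lower against culture and 12.6% in PD-1cKO tumors. After 2 doses of PD-1 Ab 1.56% of all genes were lower, and 1008 of 15062 rose.

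**Figure D3:**
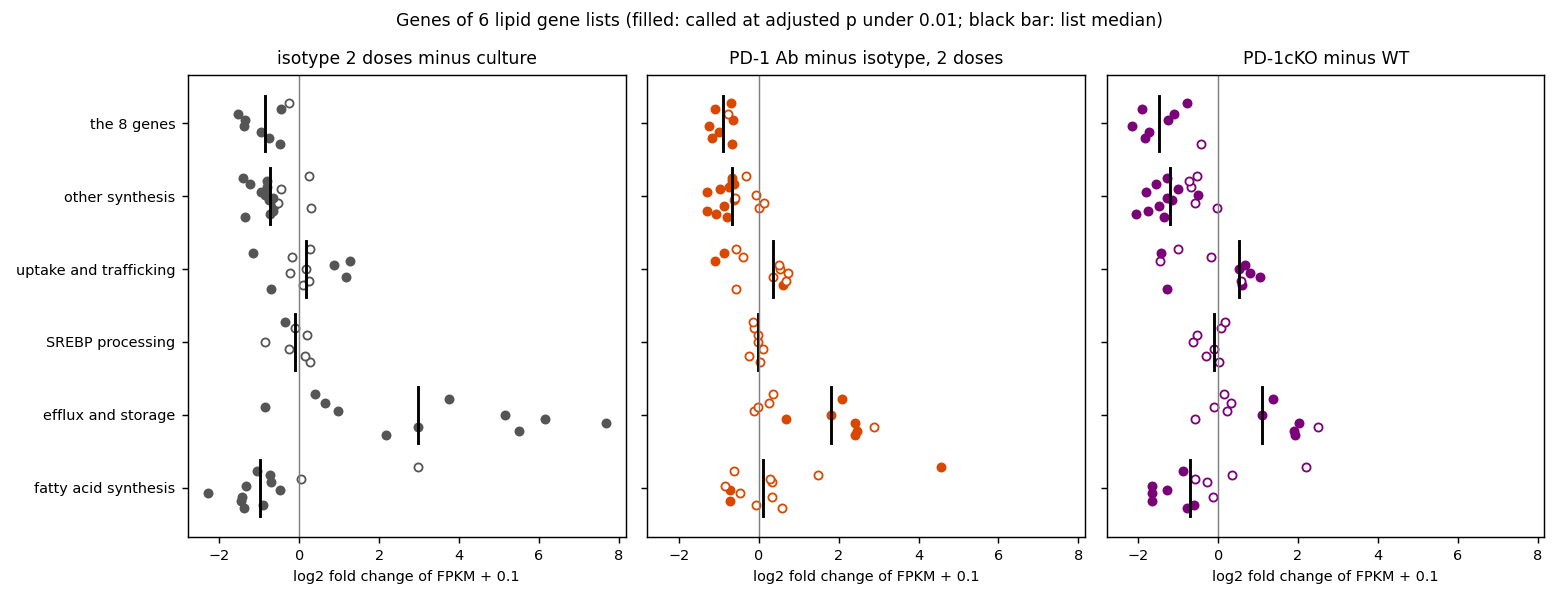
Differences in log2(FPKM + 0.1) of the members of each gene list (points) and list medians (bars) in 3 comparisons. After 2 doses of PD-1 Ab the medians are -0.89 for the 8 genes, -0.67 for the other 16 enzymes and 1.80 for sterol export and storage.

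Macrophage and T cell markers were mostly higher in the comparisons where the 8 genes were lower. Of 9 macrophage markers 9 were higher in isotype control (2 doses) tumors than in culture, 8 rose after 2 doses of PD-1 Ab, and 6 rose in PD-1cKO against WT tumors. Their summed level was 2.60 to 3.19 FPKM in culture, with Adgre1, C1qa, C1qb and C1qc at 0, 820 to 1300 FPKM with isotype control (2 doses), 1541 to 3216 FPKM with PD-1 Ab (2 doses), 965 to 1603 FPKM in WT and 1393 to 4643 FPKM in PD-1cKO tumors. Of 10 T cell markers 10 rose in each of these comparisons, and their sum was 0.0121 to 0.0503 FPKM in culture, with 7 at 0, 16.6 to 39.3 FPKM with isotype control, 87.7 to 299 FPKM with PD-1 Ab, 17.6 to 73.0 FPKM in WT and 49.2 to 178 FPKM in PD-1cKO tumors. Their part in the results for the 8 genes was not tested. Of all genes, 3068 of 15199 were higher against culture. After 2 doses of PD-1 Ab 1008 of 15062 rose, and 1323 of 15075 rose in PD-1cKO tumors.

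Fibroblast, adipocyte and cell cycle genes gave a less uniform picture. Of 7 fibroblast markers 6 were higher in the tumors than in culture, 0 passed after 2 doses of PD-1 Ab and 4 rose in PD-1cKO tumors, whose sum was 2257 to 12477 FPKM against 1092 to 2302 FPKM in WT. Of 10 adipocyte markers 1 rose after 2 doses of PD-1 Ab, with sums of 23.4 to 173 FPKM and 61.6 to 1174 FPKM, and 0 passed in PD-1cKO tumors. All 8 cell cycle genes were lower in isotype control (2 doses) tumors than in culture by this test, 0 passed after 2 doses of PD-1 Ab (sums of 638 to 689 and 474 to 578 FPKM), and 5 fell in PD-1cKO tumors (sums of 478 to 678 FPKM in WT and 82.3 to 492 FPKM in PD-1cKO). Of 8 general leukocyte markers 6 rose after 2 doses of PD-1 Ab and 6 in PD-1cKO tumors. Of 5 endothelial markers 1 rose in each, and of 7 skeletal muscle markers 1 rose after 2 doses and 0 passed in PD-1cKO tumors. Of 6 epithelial markers 5 were tested in each comparison and 0 passed. Of 7 keratinocyte or sebocyte markers 3 were tested after 2 doses and 2 in PD-1cKO tumors, and 0 passed. The other markers of these 2 lists were below the filter. The part of these genes in the results was not tested. The background is as above, with 3068 of 15199 genes higher against culture. It was 1008 of 15062 after 2 doses of PD-1 Ab and 1323 of 15075 in PD-1cKO tumors. For the cell cycle genes that were lower, the share of all genes lower was 16.8% against culture and 12.6% in PD-1cKO tumors.

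Within each group of the tamoxifen study, the levels of the 8 genes were set against the summed macrophage and T cell markers, both on the log2 scale. These relations were chosen after seeing the data and number 32 over genes, groups and marker lists, with 100000 permutations each. The macrophage sum was mostly C1qa, C1qb and C1qc. Their means were 920, 788 and 648 FPKM in PD-1cKO and 425, 331 and 261 FPKM in WT tumors. The next highest mean was that of Csf1r, at 141 and 71.8 FPKM. Relations with this sum therefore reflect mainly the C1q genes. Among the 10 PD-1cKO tumors Pearson's r with the macrophage sum was negative for 8 of 8 genes and strongest for Idi1 (r = -0.94, permutation p = 7e-05, adjusted p = 0.00224, Spearman's rho = -0.98, permutation p = 3e-05) and Hmgcs1 (r = -0.90, permutation p = 0.00038, adjusted p = 0.00405, rho = -0.96, permutation p = 6e-05). The adjusted p was under 0.05 for 5 of the 8, and the weakest was Dhcr7 at r = -0.29. Leaving out the 2 tumors farthest from the median macrophage sum gave r = -0.94 for Idi1 and -0.84 for Hmgcs1, and within the 7 tumors of 1 identifier run both were -0.93.

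Among the 10 WT tumors r with the macrophage sum was negative for 8 of 8 genes too, and the adjusted p was under 0.05 for Srebf2 (r = -0.94, permutation p = 0.00018, adjusted p = 0.00288, rho = -0.92, permutation p = 0.00048) and Dhcr7 (r = -0.81, permutation p = 0.00383, adjusted p = 0.0141, rho = -0.73, permutation p = 0.0208). Without the 2 farthest tumors r was -0.79 for Srebf2 and -0.55 for Dhcr7, and within the run of 9 it was -0.93 and -0.80. With the T cell sum, r ran from -0.77 to -0.38 in WT and from -0.86 to -0.11 in PD-1cKO tumors. All values are FPKM of 1 library, so a gene group that takes more of the library lowers the rest.

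**Figure D4:**
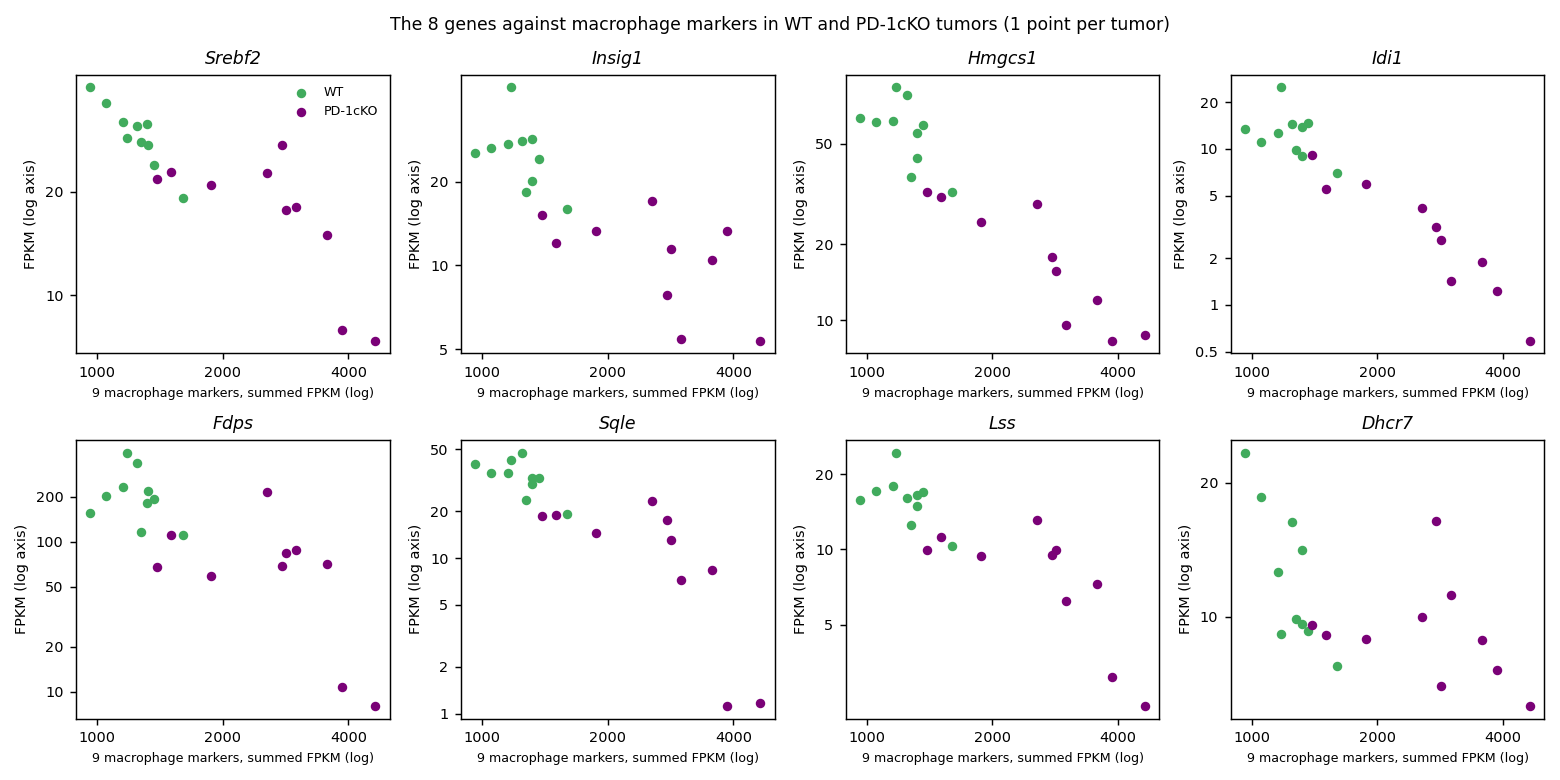
Level of each of the 8 genes (FPKM, log axis) against the summed FPKM of 9 macrophage markers (log axis) in the WT and PD-1cKO tumors, 1 point a tumor. PD-1cKO tumors span 1393 to 4643 FPKM of macrophage markers and those with the most have the least Idi1 (r = -0.94). The sum is mostly C1qa, C1qb and C1qc.

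Over all 46 samples, the genes whose pattern was most like the mean of the 8 were, of 13232 compared, Msmo1 (r = 0.965), Cyp51 (0.962), Fdft1 (0.962), Stard4 (0.947) and Fads2 (0.946), on median-of-ratios scaled log2 levels. Over the 43 tumors alone these were 0.957, 0.965, 0.959, 0.933 and 0.932. Among the 13232 genes, 492 had r above 0.8 with the mean of the 8. Abca1 ran opposite (-0.921). Among the 8, each set against the mean of the other 7, likeness was greatest for Hmgcs1 (0.940), Sqle (0.933) and Idi1 (0.917) and least for Dhcr7 (0.634). The closest of the 28 pairs was Hmgcs1 with Idi1 (0.97) and the loosest Lss with Dhcr7 (0.32). Over the tumors alone the 28 pairs ran from 0.13 to 0.97. These samples share groups, so such values describe the pattern and carry no test.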

How the data were processed

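Total RNA was sequenced as stranded, ribosomal RNA-depleted paired-end libraries. The authors aligned the reads to the mouse B38 genome with the Omicsoft aligner and deposited gene-level FPKM on Ensembl gene models, with no counts, so the depth behind a value is unknown and the number of samples limits the precision.

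FPKM was used as deposited, on the log2(FPKM + 0.1) scale, which understates changes of low genes. Tests covered genes that averaged 0.5 FPKM or more in some group of the comparison and used limma 3.58.1 (R 4.3.3, trend) with Benjamini-Hochberg adjustment over all tested genes. A gene was called at an adjusted p under 0.01 with no fold limit. The authors tested counts instead. Each comparison was fitted on its own groups. The 8 genes and all gene lists were chosen with earlier results of these data known. The rule for named genes was the 8 in every comparison and, of each other lipid list, the up to 4 called genes with the largest change, else genes set by name (Cyp51, Abca1, Apoe, Scd1 and Srebf1 among them), and the 5 genes most like the mean of the 8. Epcam, Pdcd1, Npc1, Scap, Insig2, Mbtps1 and Mbtps2 lie outside this rule. Some genes that the rule names are not reported here.

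No 2 samples were identical (0 of 1035 pairs). Of the 48795 gene identifiers, 99.1% matched GENCODE. The fits were tested on simulated data. Alternatives varied the pseudocount, filter, scaling, spread estimate, threshold, replicate block, identifier runs and samples left out, and those that leave out PD-1cKO replicates 4 and 8 or join scaling with leaving out the mitochondria-rich library, the dose comparison and the marker relations were added after seeing the data. Tables were handled in Python 3.11.15 with pandas 2.3.3, numpy 2.4.6, scipy 1.17.1 and matplotlib 3.10.9.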

Additional observations from a re-analysis of the deposited data

Results flagged for a closer look

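Of 48 sets of values (8 genes in 6 groups of 5 or 10 tumors), 10 held a sample whose gap to the nearest other sample was large for the range of its group by Dixon's criterion, where chance gives about 1 in 20. In isotype control (1 dose), replicate 1, the mitochondria-rich library, was the lowest for Sqle (23.7 FPKM, others 64.1 to 73.1), Srebf2 (6.92 FPKM, others 46.4 to 62.5), Fdps (73.5 FPKM, others 194 to 240), Lss (4.86 FPKM, others 15.9 to 19.4) and Dhcr7 (7.51 FPKM, others 40.1 to 48.1). In PD-1 Ab (1 dose), replicate 3 was the highest for Insig1 (31.3 FPKM, others 20.8 to 22.2). WT replicate 6 was the highest for Insig1 (43.7 FPKM, others 16.0 to 28.4) and Idi1 (24.9 FPKM, others 7.03 to 14.7). Among PD-1cKO tumors, replicate 10 was the highest for Fdps (216 FPKM, others 8.04 to 111) and replicate 3 for Dhcr7 (16.4 FPKM, others 6.30 to 11.2).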

How the results depend on the processing

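A count of the 8 genes without a number of genes in all beside it describes the setting only. Of the 8 genes, the number called moved with the test. After 2 doses of PD-1 Ab (7 called) it was 0 with all 8 groups in 1 fit, 3 with a 2-fold limit, and 3 to 8 with 1 tumor left out, and 1243 genes called in all became 578 without a filter, 5221 with array weights and 421 to 2571 with 1 tumor left out. For PD-1cKO against WT (7 called) it was 4 without a filter, 0 with identifier runs as a covariate and 5 to 7 with 1 tumor left out, and 3217 genes (21.3%) became 1658 without PD-1cKO replicates 4 and 8 and 1965 (without PD-1cKO replicate 7) to 4866 (without PD-1cKO replicate 9) with 1 tumor left out. For isotype control (2 doses) against culture (7) it was 2 with all 8 groups, 3 with a 2-fold limit and 5 to 8 with 1 sample left out (3563 to 7095 genes in all, lowest without culture replicate 3). For baseline against culture (7) it was 2 with all 8 groups, 3 with a 2-fold limit and 5 to 8 with 1 sample left out (3813 to 7088 genes in all, lowest without culture replicate 3). For isotype control (1 dose) against culture (2) it was 1 without the trend, 6 with array weights, 6 with median-of-ratios scaling and no mitochondria-rich sample, 4 at an adjusted p under 0.05, and 0 to 6 with 1 sample left out. WT against culture gave 7 to 8, and 1 dose of PD-1 Ab and both differences between changes gave 0 to 0.

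Replicate numbers did not pair the samples: same-numbered tumors deviated together with r from -0.24 to 0.19, and 0 samples were closest to their own number. With a replicate block, 2 genes stayed called after 2 doses of PD-1 Ab (Sqle and Fdps, 342 genes in all), 6 in PD-1cKO, 4 in isotype control (2 doses) against culture and 0 in isotype control (1 dose) against culture.

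Signs turned only for differences that were not called. After 1 dose of PD-1 Ab, Srebf2 and Dhcr7 were -0.03 and -0.16 with median-of-ratios scaling, -0.03 and -0.15 with upper-quartile scaling, -0.34 and -0.45 with array weights, -0.25 and -0.38 with identifier runs as a covariate and also in the second run alone, and -0.34 and -0.39 without isotype control replicate 1 and with median-of-ratios scaling. With 1 sample left out they ran from -0.37 to 0.42 and from -0.42 to 0.25, the lowest without isotype control replicate 1, and Lss from -0.46 to 0.03, above 0 without isotype control replicate 3 (0.01) or 4 (0.03). Scd1 in PD-1cKO ran from -0.06 (without replicate 8) to 0.52 with 1 tumor left out and was -0.15 without replicates 4 and 8. The difference between the models for Srebf2 was -0.12 and -0.08 with the 2 scalings, -0.21 with array weights, -0.04 (without PD-1cKO replicate 4) to 0.20 with 1 tumor left out (-0.03 without replicate 8) and -0.19 without both, and for Lss it was -0.20 with array weights and -0.02 without both. The causes were not tested.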
